A study of Mus musculus with 10 samples.

Results

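The 7 complement genes described here in mammary tumors of MMTV-PyMT mice are C1qa, C1qb and C1qc, which encode the 3 chains of C1q; the components C3 and Cfb; and the receptors C3ar1 and C5ar1. They were taken by gene name from 24616 genes listed in either deposited table. All 7 were listed in both, out of 23202 genes in the table of sorted tumor macrophages and 19720 genes in the table of whole tumors. MMTV-PyMT mice develop mammary tumors from the polyoma middle T antigen, which is driven in the mammary epithelium. In this series every mouse carried MMTV-PyMT and floxed alleles of Cxcr4 (Cxcr4fl/fl), the receptor of the chemokine CXCL12. Mice labelled cKO also carried Lysm-Cre, which is active in macrophages, neutrophils and other myeloid cells, and their control littermates carried no Cre. Tumors of matched size were taken at 15 weeks of age, and cells for sorting were freed with Collagenase D and DNase I. Macrophage libraries came from cells sorted on F4/80 and CD11b from 3 mice labelled cKO (725, 746 and 867) and 3 controls (706, 720 and 775). Whole-tumor libraries came from mice 725 and 746 labelled cKO and from controls 706 and 720. Each library is from 1 mouse, so n counts mice.

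Complement is a cascade of blood and tissue proteins that marks targets for uptake and calls in immune cells. C1q opens the classical pathway by binding antibody or altered surfaces, C3 is the component on which the pathways converge, and factor B (Cfb) joins cleaved C3 in the convertase of the alternative pathway. The C3a and C5a fragments released on the way act on the receptors C3aR1 and C5aR1 of myeloid cells. Plasma C3 and factor B come largely from the liver, whereas C1q comes mainly from macrophages and related cells, and C1q transcripts are widely used as markers of tissue macrophages.

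Cxcr4, the floxed gene, showed no drop with the cKO label. It was at 41.9, 165.2 and 24.1 CPM (reads of a gene per 1e+06 reads of its library) in macrophage libraries labelled cKO and at 14.45, 135.4 and 54.3 CPM in control macrophages. In tumors it was at 47.9 and 57.6 CPM in those labelled cKO and at 29.8 and 33.4 CPM in controls, higher in both tumors labelled cKO (log2 difference 0.72, limma adjusted p = 0.819), so directions here are those of the labels and not of cells shown to lack Cxcr4. The sort left both macrophage and epithelial RNA in the libraries. The F4/80 gene Adgre1 averaged 429 ± 117 CPM over the 6 sorted libraries, against 23.6 ± 4.63 CPM over the 4 tumors (SD). The epithelial gene Epcam averaged 462 ± 102 CPM over the sorted libraries and 374 ± 60.4 CPM over the tumors (SD, n = 6 and 4). The summed level of 8 macrophage markers, among them Adgre1, Csf1r and Cd68, was 722 CPM in control 775 and between 1417 and 1793 CPM in the other 5 macrophage libraries. Control 775 therefore stands apart as lowest in macrophage markers, and mouse 867, labelled cKO, as highest in stromal markers: its 7 fibroblast markers summed to 1186 CPM, against 430 CPM in control 775 and 59.05 to 143 CPM in the remaining 4. Depth was 14.4 to 25.2 M reads in macrophage libraries and 34.2 to 53.4 M reads in tumor libraries (M, 1e+06). In bulk samples, fewer cells of a type and less RNA per cell cannot be told apart.

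The C1q genes form a cluster on the minus strand of chromosome 4, where C1qb, C1qc and C1qa follow each other within 18675 bases, from 136880129 to 136898803 in GRCm38. C1qb, C1qc and C1qa have 3 exon blocks each. C3 lies on chromosome 17 (57203970 to 57228136) and Cfb lies on the same chromosome (34856374 to 34862518). C3ar1 lies on chromosome 6 (122847138 to 122856161) and C5ar1 on chromosome 7 (16246743 to 16259540). All 7 genes are on the minus strand. The RefSeq promoter table (GRCm38.p6) had an entry for 5 of the 7 genes, C1qb, C1qc, C3, C3ar1 and C5ar1. The sequences upstream of C1qb and C1qc are shown because both genes lie in one cluster and were high and low in nearly the same macrophage libraries. That of C3 is shown beside them as a component whose CPM differed less between macrophages and tumor than that of C1q. Its CPM in macrophages was 1.12-fold to 3.71-fold that of the tumor of the same mouse. The sequences run 5′ to 3′ on the gene's own strand and leave out annotated exons. They cover chr4:136886201-136886450 for C1qb, chr4:136893066-136893164 for C1qc and chr17:57228137-57228386 for C3. Capitals mark matches to the PU box GAGGAA, known as a site of the myeloid factor PU.1, or to the C/EBP core TTGCNNAA.
C1qb: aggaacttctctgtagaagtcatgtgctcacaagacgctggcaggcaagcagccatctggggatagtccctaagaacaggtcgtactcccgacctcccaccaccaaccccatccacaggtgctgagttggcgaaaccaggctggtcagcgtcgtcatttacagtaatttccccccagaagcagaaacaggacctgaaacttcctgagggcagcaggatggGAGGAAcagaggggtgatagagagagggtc
C1qc: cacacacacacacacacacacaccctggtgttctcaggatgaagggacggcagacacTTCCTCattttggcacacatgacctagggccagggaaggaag
C3: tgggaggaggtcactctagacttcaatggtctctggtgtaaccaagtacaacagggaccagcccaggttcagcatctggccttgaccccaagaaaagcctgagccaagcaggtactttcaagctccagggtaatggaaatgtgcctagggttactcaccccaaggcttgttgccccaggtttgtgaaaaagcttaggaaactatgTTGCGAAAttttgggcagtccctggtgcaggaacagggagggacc
Both strands were searched over the 250 bases before each RefSeq start site. For C1qc (136892914), C3ar1 (122856157) and C5ar1 (16259338) that site lies inside the annotated gene, so their windows cover part of it. On the minus strand these genes begin at 136893065, 122856161 and 16259540. C1qb held GAGGAA at 30 to 25 bases before its start site and C1qc held it on the other strand at 193 to 188 bases. Counted from the annotated start of C1qc, its match lies nearer. C3 held TTGCGAAA at 45 to 38 bases before its start site. Of 32851 promoter entries, 23.3% held GAGGAA and 9.56% held TTGCNNAA. The MAF recognition core TGCTGAC (3.81% of promoters) and TATAAA (12.4%) were also searched: C3ar1 held TATAAA at 235 to 230 bases before its start site, C5ar1 held none of the 4 motifs, and TGCTGAC was in none of the 5 windows. The motifs did not overlap each other in these windows, and a match is a string of letters and not a site shown to be bound.

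C1q varied widely between the mice in sorted macrophages, without separating the genotypes. C1qa, the A chain, was at 142, 304 and 80.3 CPM in macrophages labelled cKO (mice 725, 746 and 867) and at 202, 173 and 55.7 CPM in control macrophages (706, 720 and 775). The C chain gene C1qc was at 202, 302 and 100.2 CPM in macrophages labelled cKO and at 232, 224 and 49.1 CPM in controls. The B chain gene C1qb was at 315, 394 and 242 CPM in macrophages labelled cKO and at 386, 293 and 151 CPM in controls. For all 3 chains the highest library was cKO 746, the lowest was control 775 and the second lowest was cKO 867, so the genotypes overlapped. The log2 differences of CPM + 1, cKO minus control, were 0.27 for C1qa (95% interval -0.59 to 1.14), 0.27 for C1qb (-0.36 to 0.90) and 0.41 for C1qc (-0.50 to 1.33), all at adjusted p = 0.9998 by limma. All 3 turned negative without control 775, to -0.30, -0.11 and -0.32, and C1qa also turned to -0.22 without cKO 746.

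Summed over the chains, C1q spanned 256 to 1000 CPM in macrophage libraries, a 3.91-fold range, where the macrophage marker sum spanned a 2.48-fold range. Set against that marker sum, C1q stood at 43.9%, 55.7% and 29.8% in macrophages labelled cKO and at 50.5%, 40.1% and 35.4% in controls. Control 775, lowest in C1q, was also lowest in macrophage markers, yet its 35.4% was still below every library but cKO 867. For cKO 867 the marker sum was 1417 CPM and the percentage was the lowest, at 29.8%. In cKO 867 the summed monocyte markers were at 1078 CPM, led by Ccr2, a chemokine receptor of monocytes, at 979 CPM, against 173 to 324 CPM for the same sum in the other 5 macrophage libraries. Whether these monocyte transcripts bear on the C1q level was not tested.

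**Figure D1:**
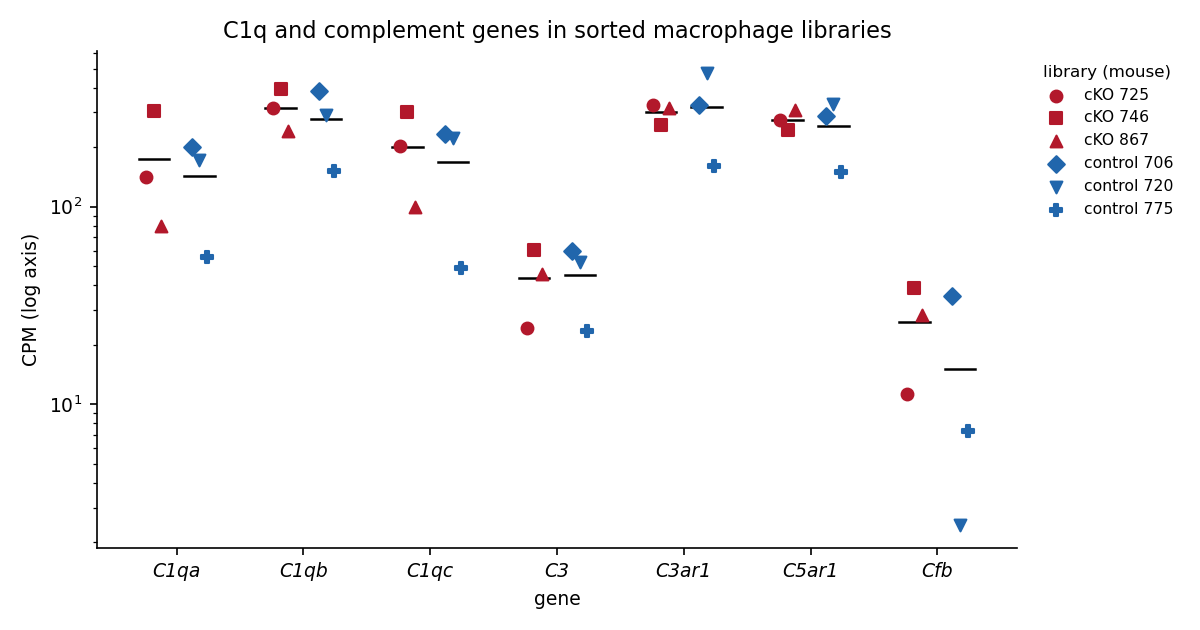
CPM on a log axis of the 7 genes in each sorted macrophage library. Red symbols are the 3 libraries labelled cKO, blue symbols the 3 controls, each shape is 1 mouse and black bars are group means. The groups overlap for every gene, and control 775 is the lowest library for all genes but Cfb.

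C1q protein is built from equal numbers of its 3 chains, but their transcripts were not level. Divided by exon length, C1qb made up 54.7% ± 7.64 of the summed C1q level per kb in macrophage libraries, C1qa 27.9% ± 4.96 and C1qc 17.4% ± 3.53 (SD, n = 6). Without division by length C1qc, at 27.4%, came above C1qa, at 23.7%. C1qb was the largest share in each of the 6 libraries, at 44.7% to 63.7%. Its share was highest in control 775 (63.7%) and cKO 867 (63.2%), which were also the 2 libraries lowest in summed C1q. In tumors the proportions were far less steady. The C1qb share per kb was 62.7% and 61.2% in tumors labelled cKO and 39.2% and 80.8% in control tumors, and the C1qa share was 20.6% and 20.4% in tumors labelled cKO and 46.4% and 7.95% in controls. The control pair thus spanned the tumors labelled cKO for both chains. Read numbers behind these tumor values were 73 to 294 for C1qa and 222 to 934 for C1qb, and reads without molecular identifiers are not independent molecules.

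C3 had a mean of 8.63 CPM per kb of exon in macrophage libraries, against 95.8 to 273 CPM per kb for the C1q genes, and did not separate the genotypes. It was at 24.4, 60.6 and 45.5 CPM in macrophages labelled cKO and at 59.7, 52.7 and 23.5 CPM in control macrophages. The lowest libraries, control 775 and cKO 725, are 1 of each genotype. The log2 difference was -0.04 (95% interval -0.84 to 0.75, limma adjusted p = 0.9998). It turned to 0.31 without cKO 725, to 0.20 without control 706 and to 0.12 without control 720. In whole tumors C3 was at 21.7 and 16.3 CPM in those labelled cKO and at 34.1 and 21.06 CPM in controls. The groups overlapped between cKO 725 and control 720, and the log2 difference of -0.49 (95% interval -1.30 to 0.33) did not pass the test (limma adjusted p = 0.878). It was -0.15 without control 706 and -0.82 without control 720.

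Of the 7 genes Cfb had the widest ratio of highest to lowest CPM in each table, and its differences had opposite signs in macrophages and tumors. It was at 11.2, 38.9 and 28.2 CPM in macrophages labelled cKO and at 35.2, 2.44 and 7.35 CPM in control macrophages, a 15.9-fold range over the 6 libraries. Control 706 lay among the libraries labelled cKO and the other 2 controls lay below all of them. In tumors Cfb was at 1.33 and 5.40 CPM in those labelled cKO and at 6.53 and 10.9 CPM in controls, an 8.18-fold range, and the groups did not overlap. The log2 difference was 1.26 in macrophages (95% interval -0.08 to 2.595, limma adjusted p = 0.9998) and -1.29 in tumors (95% interval -2.87 to 0.28, limma adjusted p = 0.833). The difference of macrophages was 0.48 without control 720 and 2.18 without control 706, and that of tumors -0.56 without cKO 725 and -2.02 without cKO 746.

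The span of Cfb overlaps Gm20547, a protein-coding gene model that also overlaps the neighboring complement gene C2, and the level given to Gm20547 was uneven across libraries. Gm20547 held 16.9 CPM in control 720 macrophages, the library with the lowest Cfb, and 0 CPM to 4 decimals in the other 5 macrophage libraries. In tumors it held 4.70 CPM in cKO 725, again the library with the lowest Cfb, and at most 0.0019 CPM in the other 3. Summed over Cfb, C2 and Gm20547, a quantity chosen after the values were seen, the level was 13.6, 41.5 and 34.3 CPM in macrophages labelled cKO and 37.1, 19.8 and 8.91 CPM in control macrophages. The log2 difference of that sum was 0.49 (95% interval -0.51 to 1.495, limma adjusted p = 0.9998), against 1.26 for Cfb alone. In tumors the sum was 6.48 and 6.13 CPM in those labelled cKO and 10.8 and 16.8 CPM in controls, a log2 difference of -0.99 (95% interval -2.16 to 0.18, limma adjusted p = 0.833), and the groups still did not overlap.

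The receptors of C3a and C5a varied less between macrophage libraries than C1qa and C1qc did, and did not separate the genotypes. C3ar1 was at 327, 258 and 318 CPM in macrophages labelled cKO and at 327, 473.5 and 161 CPM in controls. C5ar1 was at 274, 244 and 309 CPM in macrophages labelled cKO and at 289, 332 and 149 CPM in controls. Both were highest in control 720 and lowest in control 775, and the libraries labelled cKO lay between the controls. The log2 differences were 0.03 for C3ar1 (95% interval -0.60 to 0.67) and 0.17 for C5ar1 (-0.41 to 0.76), both at limma adjusted p = 0.9998. They turned to -0.39 and -0.18 without control 775, and the sign for C3ar1 turned to -0.03 when libraries were scaled to protein-coding genes, without cKO 725 (-0.03) and without cKO 867 (-0.0094). Without control 775, the remaining 5 libraries spanned a 1.36-fold range for C5ar1 and a 1.84-fold range for C3ar1. The range was 3.78-fold for C1qa and 3.01-fold for C1qc, but 1.63-fold for C1qb, below that of C3ar1. Over all 6 libraries C1qb also spanned less than C3ar1, at 2.61-fold against 2.94-fold, with C5ar1 at 2.23-fold.

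In whole tumors both receptors had positive differences that did not pass the test. C3ar1 was at 28.0 and 26.75 CPM in tumors labelled cKO and at 19.2 and 16.85 CPM in control tumors. C5ar1 was at 11.7 and 17.2 CPM in tumors labelled cKO and at 13.03 and 2.52 CPM in controls. The groups did not overlap for C3ar1 and overlapped for C5ar1, with control 720 far below the other 3 tumors. The log2 differences were 0.58 for C3ar1 (95% interval -0.19 to 1.35, limma adjusted p = 0.838) and 1.11 for C5ar1 (-0.26 to 2.49, adjusted p = 0.833). The value for C5ar1 was 0.12 without control 720 and 2.11 without control 706. The macrophage marker sum was 155 and 153 CPM in tumors labelled cKO and 130 and 133 CPM in control tumors, and its part in these differences was not tested.

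C1q in whole tumors had small positive differences, of which those of C1qa and C1qb changed sign when single libraries were left out. C1qa was at 5.51 and 3.76 CPM in tumors labelled cKO and at 7.35 and 2.09 CPM in controls. C1qb was at 17.5 and 11.8 CPM in tumors labelled cKO and at 6.498 and 22.2 CPM in controls. In both genes the controls spanned the libraries labelled cKO, and in opposite order. C1qc was at 8.28 and 6.30 CPM in tumors labelled cKO and at 4.24 and 5.50 CPM in controls, so its groups did not overlap. The log2 differences were 0.13 for C1qa (95% interval -1.504 to 1.77, limma adjusted p = 0.985), 0.22 for C1qb (-0.94 to 1.38, adjusted p = 0.964) and 0.49 for C1qc (-0.90 to 1.89, adjusted p = 0.930). The C1qa mean in CPM was slightly lower in tumors labelled cKO, at 4.63 CPM against 4.72 CPM in controls, opposite in sign to the mean on the log2 scale. The difference for C1qa turned to -0.59 without control 720 and -0.09 without cKO 725, and that for C1qb to -0.60 without control 706 and -0.05 without cKO 725.

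**Figure D2:**
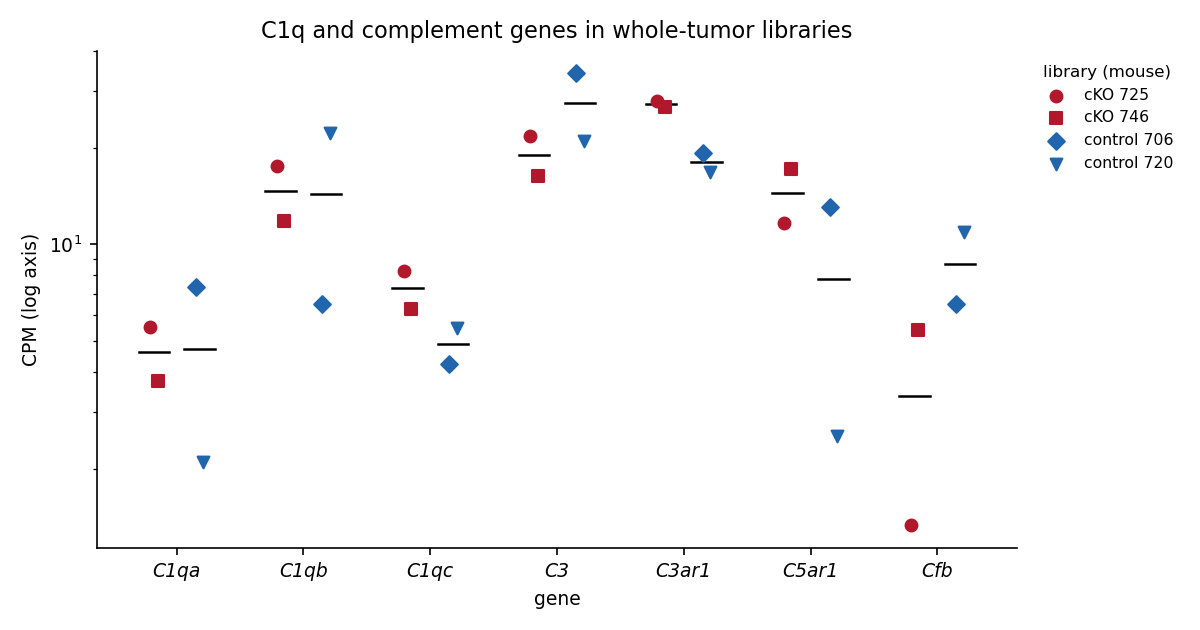
CPM on a log axis of the 7 genes in each whole-tumor library, with 2 libraries labelled cKO in red, 2 controls in blue, a shape for each mouse and black bars for group means. C3ar1 and C1qc lie higher in both tumors labelled cKO, Cfb lies lower in both, and the other 4 genes overlap.

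None of the 7 genes passed the test in either table. Limma called 0 of 16304 genes in macrophages (0.0%) and 0 of 14630 in tumors (0.0%), while 428 (2.63%) and 856 (5.85%) genes had an unadjusted p under 0.05, none of them among the 7. The log2 difference was positive for 6 of the 7 in macrophages, where 54.7% of all genes tested were positive, and for 5 of the 7 in tumors, where 56.6% were. In macrophages the libraries labelled cKO and the controls overlapped for all 7, where 7.24% of all genes tested did not overlap. In tumors C3ar1 and C1qc were higher in every library labelled cKO and Cfb was lower in every one. Among all tumor genes 21.2% were higher and 14.3% lower in this way, 35.5% in all, and 3 of 7 is near that background. The median log2 difference of the 7 was 0.27 in macrophages and 0.22 in tumors, beside 0.05 and 0.09 for all genes tested. Scaling tumors to protein-coding genes moved the tumor median of all genes tested by -0.10, to -0.01. No gene of the 7 changed sign in tumors under that scaling.

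**Figure D3:**
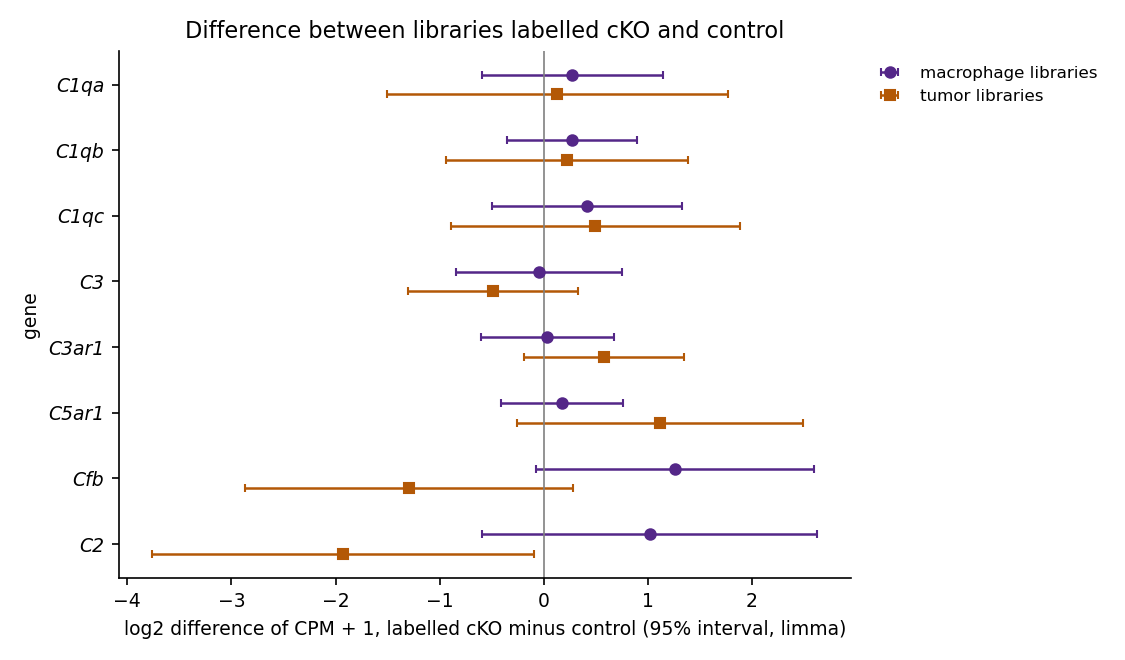
Log2 difference of CPM + 1, labelled cKO minus control, for the 7 genes and for C2, the neighbor of Cfb, with 95% intervals from limma. Circles are macrophage libraries (3 labelled cKO, 3 control) and squares are tumor libraries (2 labelled cKO, 2 control). All 7 intervals include 0 in both tables, and Cfb and C2 point up in macrophages and down in tumors.

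Across the macrophage libraries the receptors were close to each other, as were C1qa and C1qc, and Cfb was far from the other 6 genes. Likeness was measured as the root mean square difference of log2(CPM + 1) profiles centred on each gene's mean. Over the 6 macrophage libraries the closest of the 21 pairs were C3ar1 with C5ar1 (0.156) and C1qa with C1qc (0.233). The 6 pairs with Cfb were the least alike, at 1.15 to 1.45. C1qb lay nearer to C5ar1 (0.352) than to C1qa (0.404) or C1qc (0.452), and C3 was nearest to C1qb (0.416). The 3 C1q genes dropped together in cKO 867, where the receptors did not. In the 4 tumor libraries the order was different: C1qc and C3ar1 were closest (0.204), while C1qa and C1qb (1.09) and C3ar1 and C5ar1 (0.725) ranked 15th and 10th of 21. All libraries of a table share one scaling, and these distances describe the few libraries at hand.

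**Figure D4:**
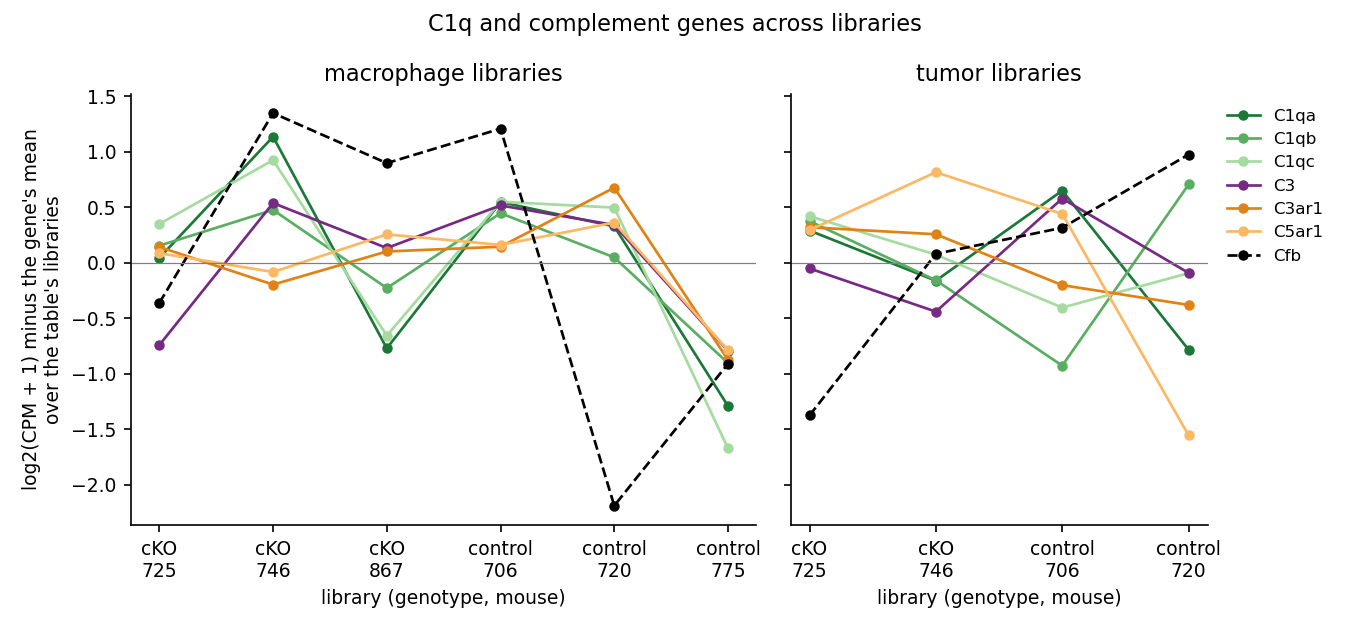
Centred log2(CPM + 1) of the 7 genes in the 6 macrophage libraries (left) and the 4 tumor libraries (right). Lines only join the values of a gene. On the left the C1q genes (green) peak in cKO 746 and dip in cKO 867 and control 775, the receptors (orange) stay close to each other, and Cfb (dashed) is lowest in control 720.

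Outside the 7 genes, many profiles lay closer to the mean of the C1q genes than C1qa and C1qb did. Profiles over the 10 libraries were centred within each table, so likeness covers the variation among macrophage libraries and among tumors and not the step between the tables. Among 9888 genes of at least 5 CPM, the closest 5 were Klhdc3 (0.176), Itgax (0.183), Gm2a (0.208), Upf1 (0.216) and Itgal (0.219), where the median gene was at 0.664. Itgax encodes CD11c, which pairs with the beta 2 integrin chain as complement receptor 4, Itgal encodes CD11a, and Gm2a encodes the lysosomal GM2 activator. Itgax was at 208, 354.5 and 114 CPM in macrophages labelled cKO and at 258, 278 and 61.7 CPM in controls, the same libraries being high and low as for C1qa. In tumors it was at 8.50 and 8.87 CPM in those labelled cKO and at 7.35 and 7.77 CPM in controls. C1qc itself was at 0.172 from the C1q mean, C1qa at 0.382 and C1qb at 0.391. Set among the 9888 genes, these distances rank 1, 226 and 259, so closeness to that mean is not particular to C1q. Each chain is itself part of that mean, which shortens its distance, so these ranks are not on the same footing as those of other genes. The profile of C3 was closest to Castor2 (0.210), Ykt6 (0.211), Zfp687 (0.216), Mcm7 (0.219) and Bub1b (0.232), with a median of 0.592 over the same genes. Of these, Mcm7 and Bub1b encode a subunit of the replicative helicase and a kinase of the mitotic checkpoint.

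The levels of C1q and of both receptors were many times higher in macrophage libraries than in the tumor of the same mouse, and those of C3 were not. The tables were normalized separately, so ratios of CPM are given for the 4 mice with both libraries and were not tested. C1qa was higher in macrophages by 25.8-fold and 80.8-fold in mice 725 and 746, labelled cKO, and by 27.4-fold and 82.7-fold in controls 706 and 720. The ratios of C1qb spanned 13.2 to 59.4, of C1qc 24.4 to 54.8, of C3ar1 9.65 to 28.1 and of C5ar1 14.2 to 132. These 5 genes were at least 4-fold higher in all 4 mice, as were 4.32% of 13783 genes compared. The ratios of Adgre1 were 18.9 to 27.9 and those of Csf1r, the receptor of the macrophage growth factor CSF1, 19.6 to 29.1. C3 had ratios of 1.12 and 3.71 in mice labelled cKO and of 1.75 and 2.50 in controls, nearer to those of Epcam (0.816 to 1.87) than to those of Adgre1. With both tables scaled to protein-coding genes the C3 ratio of mouse 725 was 0.808. Cfb had ratios of 8.42 and 7.21 in mice labelled cKO and of 5.40 and 0.224 in controls. The lowest ratio was that of mouse 720, in whose macrophage library Gm20547 held 16.9 CPM. The highest was that of mouse 725, in whose tumor library Gm20547 held 4.70 CPM. Summed over Cfb, C2 and Gm20547, macrophages and tumor stood at 13.6 and 6.48 CPM in mouse 725 and at 41.5 and 6.13 CPM in 746. The sums were 37.1 and 10.8 CPM in mouse 706, and 19.8 and 16.8 CPM in mouse 720. The keratin Krt8 of luminal epithelium had ratios of 5.31 to 7.91, so a ratio of that size is not particular to macrophage genes.

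**Figure D5:**
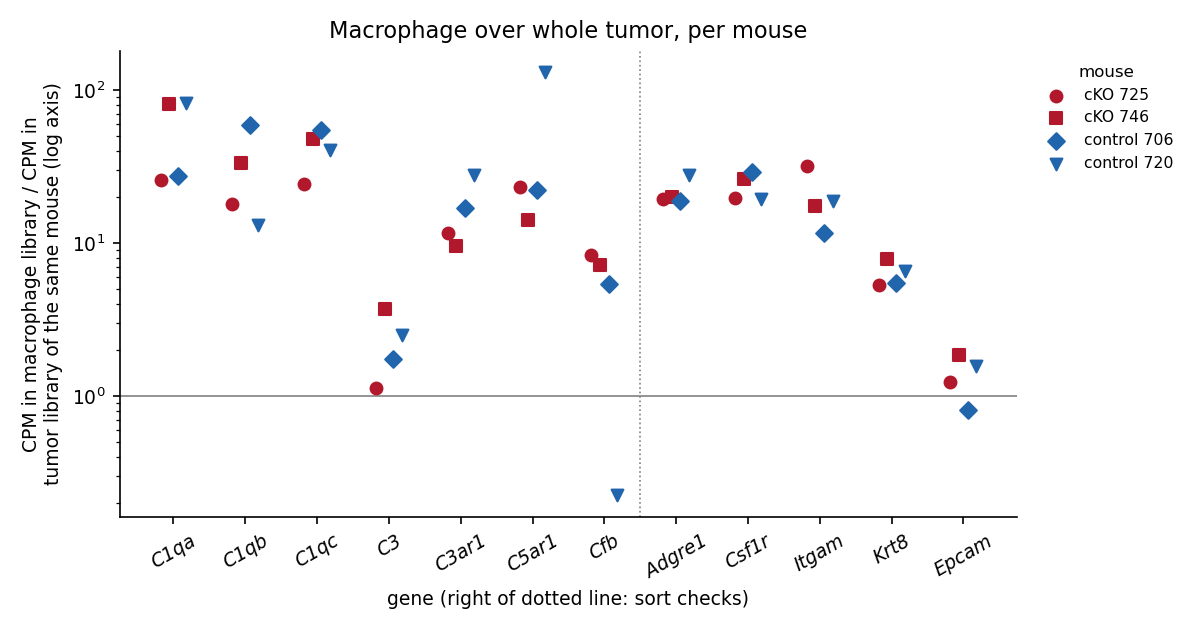
Ratio of CPM in the macrophage library to CPM in the whole-tumor library of the same mouse, on a log axis, for the 7 genes and 5 genes used to check the sort. Each point is 1 mouse, red for those labelled cKO and blue for controls, and the grey line marks equal levels. C1q and receptor genes lie at 9.65 or above in every mouse, C3 lies between 1.12 and 3.71, and Cfb falls to 0.224 in control 720.

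In order of mean level, both macrophage groups came before both tumor groups for all 7 genes, and single libraries of the tables overlapped for C3 and Cfb. C1qa averaged 175 ± 115 CPM in macrophages labelled cKO and 143.5 ± 77.3 CPM in control macrophages (SD, n = 3 each), then 4.63 ± 1.24 CPM in tumors labelled cKO and 4.72 ± 3.72 CPM in control tumors (SD, n = 2 each). C3ar1 averaged 301 ± 37.3 and 320.5 ± 156 CPM in macrophages labelled cKO and control macrophages, and 27.4 ± 0.883 and 18.03 ± 1.66 CPM in tumors labelled cKO and control tumors. C3 averaged 43.5 ± 18.2 and 45.3 ± 19.2 CPM in macrophages labelled cKO and control macrophages, and 19.01 ± 3.79 and 27.6 ± 9.22 CPM in tumors labelled cKO and control tumors. The genotypes differed by less than the SD of either group for C1qa in both tables and for C3ar1 and C3 in macrophages. The C3ar1 means of tumors differed by more than the SD of either group. In tumors the C3 means differed by less than the SD of the controls but by more than that of the tumors labelled cKO.

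Compared per length, C1qb and C1qa led in macrophages, and C5ar1 lay above C1qc. Exon lengths are those of GENCODE vM21, and the annotation used for counting is not known. The mean level per kb of exon was 273 CPM for C1qb, 153 CPM for C1qa, 104 CPM for C5ar1, 95.8 CPM for C1qc, 72.2 CPM for C3ar1, 8.63 CPM for C3 and 7.28 CPM for Cfb. In tumors C1qb also led, at 13.3 CPM per kb, followed by C3ar1 at 5.27, C3 at 4.53, C1qa at 4.50, C5ar1 at 4.32, C1qc at 3.15 and Cfb at 2.14 CPM per kb. C3 thus stood beside C1qa and the receptors in whole tumors and far below them in sorted macrophages.

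The wider complement system showed no called gene either. Of 48 further complement genes, 37 were listed and 28 tested in macrophages, where 20 had a positive and 8 a negative log2 difference (54.7% of all genes were positive), with a median of 0.24. In tumors 34 were listed and 28 tested, with 10 positive and 18 negative differences (56.6% of all genes were positive) and a median of -0.10. None passed limma in either table. Groups did not overlap for 1 higher and 1 lower gene in macrophages (3.78% and 3.45% of all genes) and for 2 higher and 5 lower genes in tumors (21.2% and 14.3% of all genes). The macrophage median turned to -0.13 without control 775 and -0.03 without cKO 867.

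Among activating components, C4b, which forms part of the classical C3 convertase, was at 56.8, 122 and 213 CPM in macrophages labelled cKO and at 65.65, 92.45 and 67.6 CPM in controls. Its near-identical copy C4a makes that value uncertain. C2, the serine protease partner of C4b, was at 2.41, 2.60 and 6.04 CPM in macrophages labelled cKO and at 1.88, 0.406 and 1.57 CPM in controls, and its span overlaps Gm20547. Cfp, which encodes properdin, the stabilizer of the alternative convertase, was at 6.195, 29.8 and 45.15 CPM in macrophages labelled cKO and at 34.9, 21.4 and 15.3 CPM in controls. The groups overlapped for C4b and Cfp and not for C2. The terminal gene C6 was at 16.02 CPM in cKO 867, at 5.70 CPM in control 775 and listed at 0 in the other 4 macrophage libraries.

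Among regulators, clusterin (Clu) was at 134, 266 and 148 CPM in macrophages labelled cKO and at 217, 192 and 173 CPM in controls. Serping1, the inhibitor of C1, was highest in cKO 867 (11.6 CPM), with 4.39 CPM in control 775. The fibroblast markers of cKO 867 summed to 1186 CPM and its endothelial markers to 286 CPM, and the part of those cells in that value was not tested. The membrane regulators Cd55 and Cr1l were at 27.3 to 60.6 CPM and 27.5 to 52.6 CPM in macrophages labelled cKO and at 12.9 to 47.6 CPM and 29.6 to 44.3 CPM in controls. In tumors Cd55 was at 39.6 and 44.7 CPM in tumors labelled cKO and at 48.9 and 47.03 CPM in controls.

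Among binding partners and receptors, calreticulin (Calr), a chaperone that also serves as a C1q receptor on cell surfaces, was at 440, 649 and 342 CPM in macrophages labelled cKO and at 496, 515 and 273 CPM in controls. Its uptake partner Lrp1 was at 211, 294.5 and 407 CPM in macrophages labelled cKO and at 347, 560 and 217 CPM in controls. Both overlapped between genotypes. Vsig4, the complement receptor of resident macrophages in liver, was at 1.03 CPM in cKO 867 and listed at 0 in the other 5 macrophage libraries, which allows up to 0.130 to 0.209 CPM in each by counting error (3 reads). Vsig4 was named after its values were seen.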

How the data were processed

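RNA was sequenced from 6 macrophage and 4 whole-tumor libraries, with a ribosomal RNA removal kit per the labels' protocols. STAR 2.7.8a, Partek and GRCm38 (mm10) are named in the submitters' processing notes; the counting method is not given in the sources used here. The deposited values are log2 values: 2 to the power of each, minus 1, sums to 1e+06 in every library, so they were read as log2(CPM + 1) and used without a further logarithm. Depth was inferred from the steps between low values. Of values under 1 CPM in a library, 83.9% to 90.1% were whole reads within 0.1 read, under the 95% asked for, so no count test was run. Deposited gene starts matched GENCODE vM21, an annotation of GRCm38, for only 2.19% and 2.29% of genes, although the notes name GRCm38. Positions and exon lengths therefore come from GENCODE vM21 by gene identifier. The annotation used for counting is not known, so levels per kb and C1q shares per kb rest on lengths that may differ from it.

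The tables were fitted one by one in limma (version 3.58.1, under R 4.3.3; intensity trend, mean of at least 1 CPM, cKO minus control), with two-sided p-values adjusted by Benjamini-Hochberg over all genes tested (threshold 0.05) and a check on simulated data. The genes and lists were chosen with earlier results of these data known. Beyond the 7 genes, up to 3 genes per complement class with the highest mean CPM were open to naming, and the 5 closest profiles; an item of that list is not reported here. The settings varied were the pseudocount (0.1 and 5), filters (none and 5 CPM), scalings (TMM, median ratio and protein-coding total), no trend, library weights and each library left out. The sum with Gm20547 was added after the data were seen. No label names the partners of the size-matched tumors.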

Additional observations from a re-analysis of the deposited data

Results flagged for a closer look

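C2, the neighbor of Cfb, moved in opposite directions in the 2 tables. Every macrophage library labelled cKO lay above every control, a pattern seen in 3.78% of all genes tested. Every tumor library labelled cKO lay below every control, a pattern seen in 14.3% of all genes tested. C2 was at 2.41, 2.60 and 6.04 CPM in macrophages labelled cKO and at 1.88, 0.406 and 1.57 CPM in control macrophages. Its log2 difference was 1.02 in macrophages and -1.93 in tumors (0.450 and 0.735 CPM in tumors labelled cKO, 4.24 and 5.93 CPM in control tumors), a gap of 2.95 that was not tested. Neither difference passed limma (adjusted p = 0.9998 and 0.833), and C2 overlaps Gm20547 and Zbtb12. In both tables C2 was lowest in the library where Gm20547 was highest. Gm20547 held 16.9 CPM in control 720 macrophages and 4.70 CPM in the tumor of cKO 725. Its part in the C2 differences was not tested.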

How the results depend on the processing

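None of the 7 genes passed limma under any alternative run. Their directions held under other pseudocounts, filters, TMM and median-ratio scaling, no trend and library weights, and under scaling to protein-coding genes except for C3ar1 in macrophages (-0.03). Filtering at 5 CPM left C1qa out of the tumor test. With 1 library left out, the log2 differences in macrophages ranged from -0.30 to 0.73 for C1qa, -0.11 to 0.56 for C1qb, -0.32 to 0.85 for C1qc, -0.45 to 0.31 for C3, -0.39 to 0.38 for C3ar1, -0.18 to 0.40 for C5ar1 and 0.48 to 2.18 for Cfb. In tumors they ranged from -0.59 to 0.85 for C1qa and -0.60 to 1.04 for C1qb, and the other 5 kept their sign; a lone library there is assumed to vary like the other group. Leaving out a macrophage library called 0 to 3 genes: 3 without control 775, 1 without control 706 and 1 without cKO 867, none a complement gene. The cause was not tested. Scaled to protein-coding genes, the mean log2 ratio of macrophages to tumor for C1qc was 4.79 in place of 5.33, and the median of the wider complement genes in tumors -0.24 in place of -0.10. Without division by length, C1qc made up 27.4% of summed C1q in macrophages and 24.3% in tumors. No paired analysis was possible because, for the comparison of genotypes, mouse numbers are shared only between the separately normalized tables and not between genotypes, and the labels do not name the partners of the size-matched tumors. With 3 and 2 mice a group the intervals are wide.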

Other observations

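C5ar2 and C1qbp lie outside the rule for named genes and were chosen after their values were seen. C5ar2, the second receptor of C5a, was at 13.03, 22.6 and 16.1 CPM in macrophages labelled cKO and at 26.5, 18.7 and 7.35 CPM in control macrophages. Its macrophage level was 1.13-fold to 4.38-fold that of the tumor of the same mouse in the 4 mice with both libraries, beside 14.2-fold to 132-fold for C5ar1. C1qbp, a mitochondrial protein that binds C1q, was at 29.01, 31.02 and 23.0 CPM in macrophages labelled cKO and at 14.1, 14.02 and 24.8 CPM in controls, and the groups overlapped through control 775.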
